A study of Saccharomyces cerevisiae with 6 samples.

Results

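The 3′ segment of the 25S rRNA gene, as the term is used here, comprises positions 5516 to 6647 of the 35S gene. These are the final 1132 of the 3396 positions of the 25S gene and 1132 of the 6858 positions measured. The segment was defined by position alone and ends at the mature 25S 3′ end. In the R64 yeast genome it lies on the minus strand of chromosome XII, from 460923 to 462054, within the rRNA gene that the annotation names RDN25-2. RNA 3′ ends were counted at each position by NET-Seq (native elongating transcript sequencing) of RNA polymerase I (Pol I) in 3 WT and 3 rpa190-F1205H libraries of Saccharomyces cerevisiae. Per the labels, each strain was grown as triplicate cultures at 30 °C to an OD600 of 0.3. In the mutant, the F1205H substitution places histidine for phenylalanine in Rpa190, the largest subunit of Pol I. As the methods state, the mutant allele was supplied on a plasmid in cells without the chromosomal RPA190 gene, and the mutant strain had an HA tag on the C terminus of Rpa135, the second largest subunit. The comparison was with the appropriate parent strain, and all 6 libraries were made from immunoprecipitated Pol I.

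Pol I transcribes the 35S precursor as 1 long RNA, in the order 18S, 5.8S, and 25S, with spacers (ETS1, ITS1, ITS2, and ETS2) that are removed during ribosome assembly. A polymerase reaches the 3′ segment of the 25S gene only after it has copied nearly all of the precursor. This stretch encodes much of the catalytic core of the large ribosomal subunit, including most of the peptidyl transferase centre, where peptide bonds are made. It also encodes the sarcin-ricin loop, a contact site of the translational GTPases. Just past its end, the precursor is cut cotranscriptionally by the RNase III enzyme Rnt1, which releases the transcript. In NET-Seq, each read from nascent RNA marks the last nucleotide that 1 polymerase added, so a high value is a position where polymerases are often found. Reads from mature rRNA, which the study names as a likely contaminant of these samples, cannot be told apart from nascent ends within the 25S gene.

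The sequences below show where the largest changes lay. Each is the RNA in 5′ to 3′ direction as given by the base column of the deposited table, written with U, with the counted 3′ end in capitals. For a nascent end, the bases to the left of the capital had already been transcribed, and the 10 bases to its right were still ahead of the polymerase. The first 5 are the largest rises in rpa190-F1205H and the next 5 the largest falls, among positions with an adjusted p below 0.05, a mean over the 6 libraries of at least 50 RPM (reads per 1000000 reads of the gene), and no overlap between strains.
position 5960, rose (chrXII:461600-461629): gaacaaaaggguaaaagccCccuugauuuu
position 5721, rose (chrXII:461839-461868): gguguagaauaagugggagCuucggcgcca
position 6499, rose (chrXII:461061-461090): ggugcacuuggcggaaaggCcuugggugcu
position 5532, rose (chrXII:462028-462057): acucucuuaagguagccaaAugccucguca
position 5623, rose (chrXII:461937-461966): gcgaaaccacagccaagggAacgggcuugg
position 6028, fell (chrXII:461532-461561): aucgauccuuuagucccucGgaauuugagg
position 6622, fell (chrXII:460938-460967): uguuguuacgaucugcugaGauuaagccuu
position 5733, fell (chrXII:461827-461856): gugggagcuucggcgccagUgaaauaccac
position 6623, fell (chrXII:460937-460966): guuguuacgaucugcugagAuuaagccuuu
position 6318, fell (chrXII:461242-461271): aauugguuuuugcggcuguCugaucaggca
Of the last 10 nucleotides at the rises, 74.0% were purines (A or G), against 44.0% at the falls. All 178 rises that met the same criteria had 60.4% purines there, and all 591 falls had 47.9%. The mean of at least 50 RPM covered both strains, so a position could pass through the strain in which it was higher. Among the positions printed here, only 5532 had a strain mean below 50 RPM (36.8 RPM in WT and 170 RPM in the mutant). These purine shares are therefore descriptions. Positions 5721 and 5733 lie close together, and one rose while the other fell.

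The values were scaled by the authors so that the positions from the start of the 35S gene to its terminator T1 sum to 1000000 in each library. The values therefore describe how a library's reads were distributed, and a rise in one region lowers the values of the others. The 35S gene held 2028349 to 3087916 reads in WT and 3155425 to 3687549 reads in the mutant. The 3′ segment held 436445 to 677826 and 543786 to 629122 of these, with a median of 290 to 437 reads per position over the 6 libraries, so counting error was small at most positions. The spacers held 3.81% to 4.45% of the reads in WT and 12.1% to 12.3% in the mutant. This shift moves with every difference below, and its part in them was not tested. Within a strain, replicates had Spearman correlations of 0.980 to 0.989 over the 1132 positions, against 0.793 to 0.834 between strains. These are descriptions over positions that share a library and a sequence.

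The mean occupancy of the 3′ segment was lower in rpa190-F1205H. Per position it was 192, 190, and 194 RPM in the 3 WT libraries, and the 3 mutant libraries had 153, 152, and 151 RPM. The groups did not overlap, and the spread within each was far smaller than the gap. The strain means were 192 ± 1.91 and 152 ± 1.06 RPM (WT and mutant, SD, n = 3), which is a change of −20.9% or −0.34 on the log2 scale. A two-sided exact permutation test gave p = 0.1, the smallest that 3 libraries against 3 allow. Had the libraries been scaled to equal totals over the 4 spacers, the log2 ratio would be −1.90.

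By means over positions, occupancy was further below WT in the 3′ segment than in the other segments of the 25S gene. The 5′ segment changed from 170 ± 2.94 to 165 ± 1.24 RPM, a log2 ratio of −0.05. The middle segment changed from 194 ± 1.95 to 176 ± 0.844 RPM, a log2 ratio of −0.14. Medians over positions did not follow this order in the other segments. The median position had 128 RPM in both strains in the 5′ segment and was higher in the mutant in the middle segment, at 142, 138, and 139 RPM against 133, 132, and 127 RPM in WT. In the 3′ segment it was lower, at 122, 121, and 119 RPM against 146, 143, and 140 RPM in WT. Ratios within a library do not depend on how it was scaled. The log2 ratio of the 3′ segment to the 5′ segment was 0.15, 0.18, and 0.19 in the WT replicates and −0.10, −0.11, and −0.14 in the mutant replicates, so the 3′ segment was the denser of the 2 in every WT library and the sparser in every mutant library. The difference between strains was −0.29 (exact permutation p = 0.1). Against the middle segment the log2 ratio averaged −0.01 ± 0.01 over WT and −0.21 ± 0.02 over the mutant, a difference of −0.20 (exact permutation p = 0.1). Accordingly, 34.4%, 34.5%, and 34.6% of the 25S reads lay in the 3′ segment in WT and 31.0%, 31.0%, and 30.5% in the mutant, a difference of −3.70 percentage points (exact permutation p = 0.1).

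The plot of mean occupancy by segment and window also shows how the decrease was spread within the 3′ segment.

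**Figure D1:**
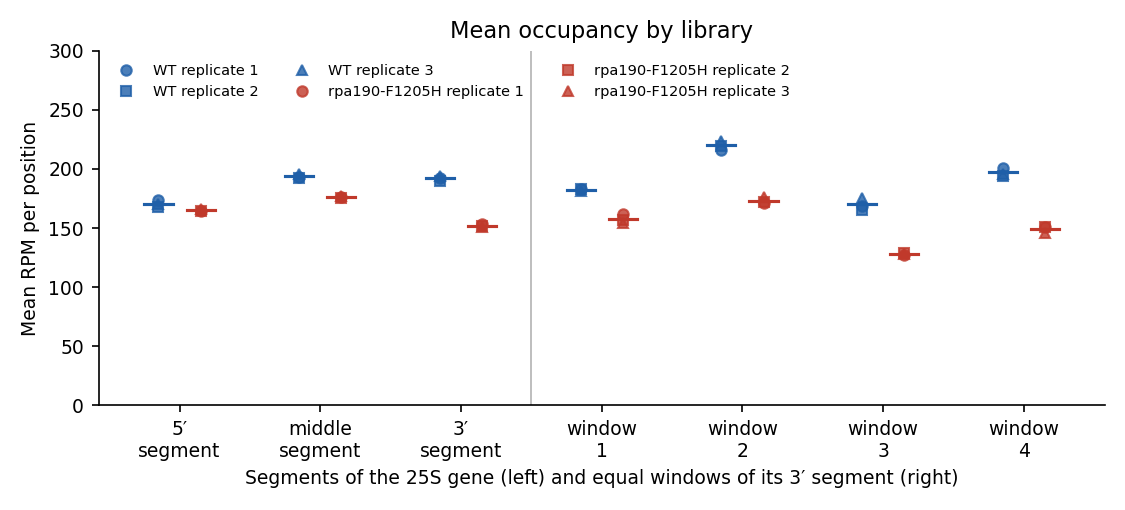
Mean RPM per position in each library (points) and strain mean (lines), for the 3 segments of the 25S gene and for 4 windows of 283 positions within the 3′ segment, in order from 5′ to 3′. The strains are closest in the 5′ segment (170 and 165 RPM) and apart in the 3′ segment (192 and 152 RPM), where all 4 windows are lower in the mutant.

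The 3′ segment was divided into 4 windows of 283 positions. All were lower in the mutant, with no overlap between the strains in any window. From 5′ to 3′, the log2 ratios of the window means were −0.21, −0.35, −0.41, and −0.40, each with an exact permutation p of 0.1. The second window was the densest in both strains, at 220 ± 4.0 RPM in WT and 173 ± 2.25 RPM in the mutant. The log2 ratio of the fourth window to the first averaged 0.114 ± 0.0245 over WT and −0.0816 ± 0.0289 over the mutant, a difference of −0.20 (exact permutation p = 0.1). With medians over positions in place of means, this difference was −0.07 (exact permutation p = 0.2) and the strains overlapped.

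**Figure D2:**
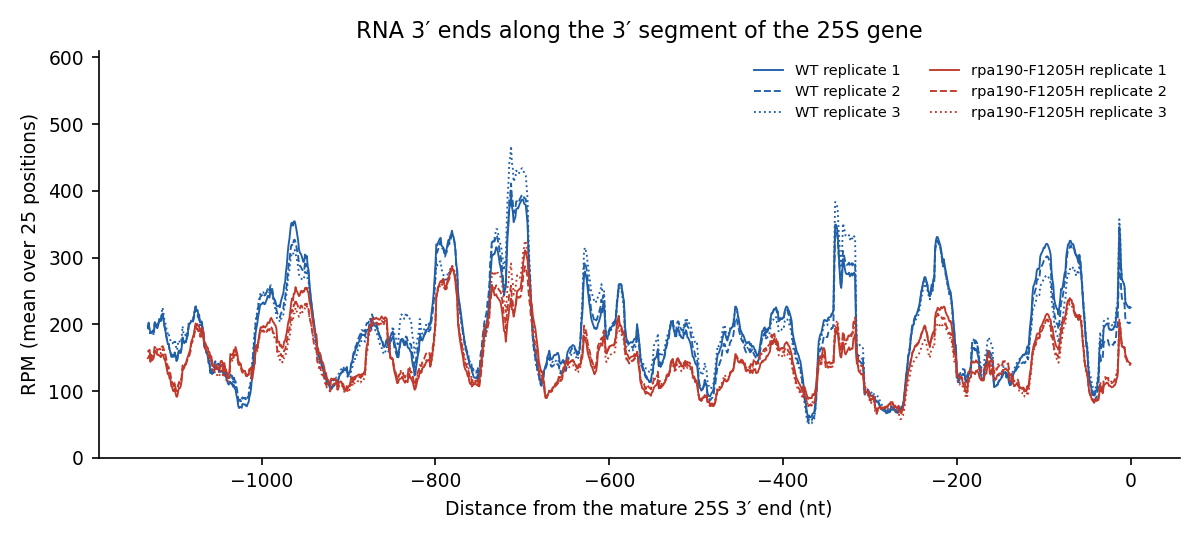
Moving mean of RPM over 25 positions for each of the 6 libraries against the distance from the mature 25S 3′ end in nucleotides. The 3 libraries of a strain run close together, the peaks lie at similar places in both strains, and the mutant peaks are lower over most of the 3′ segment.

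Position by position, falls outnumbered rises. Of 1131 positions tested, 634 (56.1%) were lower and 207 (18.3%) were higher in rpa190-F1205H (limma on log2(RPM + 1), Benjamini-Hochberg adjusted p below 0.05 over all positions), and 290 met neither. Over all 6843 positions tested in the 35S gene, 33.9% were lower and 40.6% were higher, so the balance in the 3′ segment was the opposite of that background. In the 5′ segment of the 25S gene 38.3% were lower and 31.8% higher, and in the middle segment 40.8% and 30.3%. The median log2 fold change was −0.38 in the 3′ segment, with a range from −1.38 to 2.78, against 0.05 over all positions. The 3 mutant libraries lay below all 3 WT libraries at 672 positions (59.4%, against 36.2% over the 35S gene) and above them at 219 (19.4%, against 41.8%).

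These counts depend on the scaling. With each library rescaled to the same total within the 3′ segment, which removes its overall decrease, 30.9% of its positions were higher and 28.2% lower. Rescaled to the same median, 14.3% were higher and 67.7% lower. On the scale of equal spacer totals, 1.06% were higher and 96.0% lower. The scaling alone moved the median log2 fold change of all positions from 0.05 to 0.38, −0.12, and −1.48, respectively.

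Calls of one direction came in runs. With 56.1% of positions lower and 18.3% higher, runs of lower positions were the longer ones, and with equal segment totals the longest run had 9 positions in either direction. On the authors' scale, the longest unbroken run of lower positions had 32 nucleotides, from 6513 to 6544, where the mean was 202, 191, and 189 RPM in WT and 130, 128, and 122 RPM in the mutant. Others covered 25 nucleotides from 5668 to 5692 (315 ± 24.2 and 204 ± 15.8 RPM) and 21 nucleotides from 5756 to 5776 (201 ± 7.88 and 131 ± 5.34 RPM). The latter was followed at once by a run of 6 higher positions, from 5777 to 5782, with 145 ± 14.0 RPM in WT and 348 ± 3.02 RPM in the mutant. The longest run of higher positions had 8 nucleotides, from 6481 to 6488, at 42.9 ± 1.21 RPM in WT and 94.7 ± 5.14 RPM in the mutant.

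The most occupied positions of WT were lower in the mutant. Position 6318 was the highest of the 3′ segment in WT, with 2043, 2082, and 2532 RPM in the replicates, and had 756, 919, and 930 RPM in the mutant. The lowest WT value was thus more than 2 times the highest mutant value, and the log2 fold change was −1.35 ± 0.13 (SE, limma adjusted p = 1.9e-05). Its 3′ neighbour, 6319, had 1366, 1558, and 1659 RPM in WT and 536, 662, and 643 RPM in the mutant, a log2 fold change of −1.32. All of the 10 highest WT positions (6318, 6646, 6645, 6319, 5941, 6434, 5944, 5922, 6623, and 6029) were lower in the mutant. Their log2 fold changes ran from −1.36 at 6623 to −0.46 at 5922. Of the 57 highest WT positions (5%), 51 (89.5%) were lower and 2 higher, against 56.1% and 18.3% over the segment. These positions were ranked by the WT values that also enter the fold change, so the counts are a description. The strains shared 32 of their 57, 56.1% of each list.

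By the median of the 3 libraries, which also ranked the WT positions, 6646 was the highest position in the mutant, followed by 5860, 6318, 6645, 5652, 5922, 5623, 6434, 6319, and 6068. Of these 10 positions, 6 were also among the 10 highest of WT, and 3 were higher in the mutant (5860, 5652, and 5623). At 5860 the values were 839, 912, and 768 RPM in WT and 1007, 1113, and 1228 RPM in the mutant, with no overlap and a log2 fold change of 0.41 ± 0.11 (SE, limma adjusted p = 0.0090). With equal medians it did not pass the threshold (log2 fold change 0.23, limma adjusted p = 0.094). Position 5652 had 523, 557, and 525 RPM in WT and 752, 770, and 791 RPM in the mutant, a log2 fold change of 0.53. Position 6068, within the motif of the peptidyl transferase centre adenosine described below, had 579, 627, and 635 RPM in WT. The mutant had 639, 627, and 675 RPM there, which overlapped (log2 fold change 0.08, limma adjusted p = 0.45). The 4 mutant-high positions that were not in the WT list are shown with the 3′ end in capitals, since each is an A preceded by G.
position 5623 (chrXII:461937-461966): gcgaaaccacagccaagggAacgggcuugg
position 5652 (chrXII:461908-461937): gcagaaucagcggggaaagAagacccuguu
position 5860 (chrXII:461700-461729): aagacauugucagguggggAguuuggcugg
position 6068 (chrXII:461492-461521): cagaaaaguuaccacagggAuaacuggcuu
On the scale of equal spacer totals, 5860, 5652, and 6068 turned to log2 fold changes of −1.15, −1.03, and −1.48, whereas 5623 stayed higher. Within the segment, most ends in GGA or AGA were not higher in the mutant. Of the 18 ends in GGA, 5 (27.8%) were higher and 8 (44.4%) lower, and of the 25 in AGA, 6 (24.0%) were higher and 10 (40.0%) lower. Over all positions of the segment 18.3% were higher and 56.1% lower. Over the 35S gene, 57.6% of ends in GGA were higher and 23.0% lower, and 50.3% and 24.1% of those in AGA. The shares over all its positions were 40.6% and 33.9%.

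The reads of the 3′ segment were less concentrated in the mutant. Its 11 highest positions, chosen in each library, held 6.58%, 6.75%, and 7.49% of its reads in WT and 4.96%, 5.22%, and 5.53% in the mutant. The groups did not overlap, and the difference was −1.71 percentage points (exact permutation p = 0.1). The 57 highest held 20.2% ± 0.981 and 17.4% ± 0.715.

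On the authors' scale, rises were fewer than falls, but the largest rises were larger than the largest falls. Position 5960, a C within a run of 5 C, had 71.7, 81.4, and 68.0 RPM in WT and 535, 455, and 542 RPM in the mutant, a 6.93-fold difference of the means and a log2 fold change of 2.78 ± 0.11 (SE, limma adjusted p = 1.6e-07). Its sequence, printed above, has the purine-rich stretch aaaaggguaaaag just behind these C residues. At 5721, a C after GUGGGAG, the values were 53.6, 61.6, and 61.2 RPM in WT and 301, 305, and 337 RPM in the mutant, a log2 fold change of 2.40. Position 6499, a C after GGAAAGG, had 64.6, 75.4, and 75.1 RPM in WT and 307, 369, and 398 RPM in the mutant, a log2 fold change of 2.30. At all of these the lowest mutant library was more than 4 times the highest WT library. Position 5623, an A after AAGGG, rose from 147, 187, and 166 RPM to 738, 723, and 782 RPM, a log2 fold change of 2.16, and was the only one of the 5 largest rises to enter the 10 highest positions of the mutant.

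The 5 largest falls were 2.56-fold to 2.63-fold. With equal spacer totals, their log2 fold changes ran from −2.94 at 6028 to −2.91 at 6318. The largest rise on that scale was 1.22, at 5960. Position 6028, a G after CCCUC, had 411, 446, and 551 RPM in WT and 153, 192, and 191 RPM in the mutant, a log2 fold change of −1.38 ± 0.14 (SE, limma adjusted p = 3.3e-05). The adjacent G at 6029, one of the 10 highest in WT, fell from 1004 ± 115 to 497 ± 62.6 RPM. At 5733, a U after GCGCCAG, the values were 396, 421, and 465 RPM in WT and 166, 163, and 167 RPM in the mutant, a log2 fold change of −1.36. The adjacent positions 6622 and 6623, near the 3′ end of the gene, were both among the 5 largest falls.

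**Figure D3:**
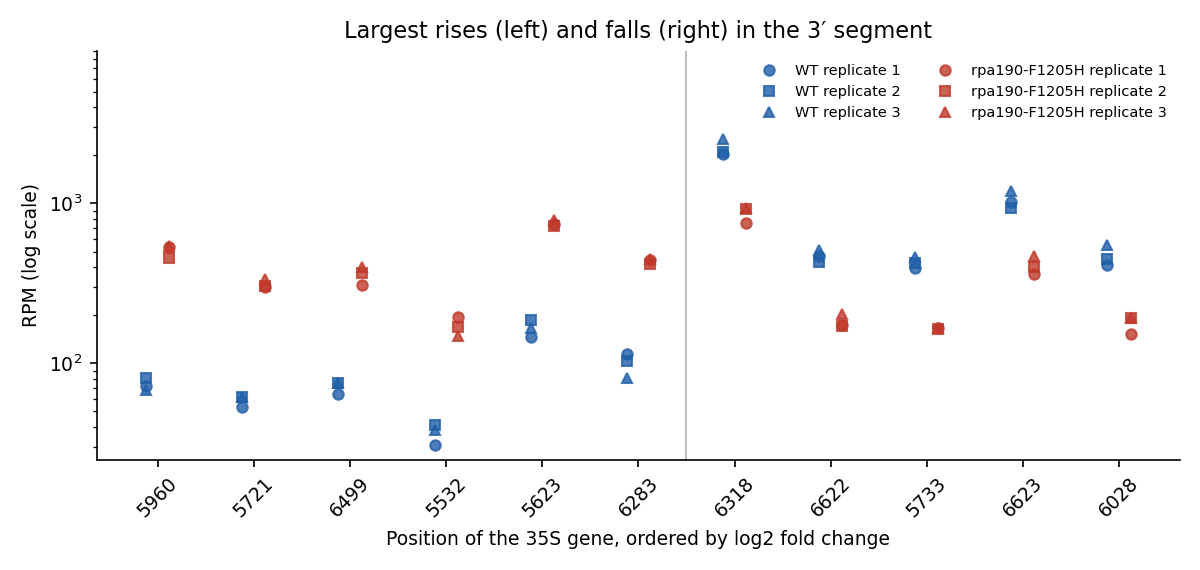
RPM on a log scale in each library at the 5 largest rises and 5 largest falls of the 3′ segment and at 6283, the largest rise of the third window. Positions are those of the 35S gene, ordered by log2 fold change, and the strains do not overlap at any of them.

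On the scale of equal spacer totals, 12 positions of the 3′ segment were still higher in the mutant, namely 5532, 5623, 5629, 5721, 5893, 5960, 5961, 6044, 6210, 6283, 6499, and 6602. On that scale their log2 fold changes ran from 0.29 at 6602 to 1.22 at 5960, with limma adjusted p-values of 0.035 and 2.5e-06 at these 2. Position 5893 was the least occupied of them, at 17.0, 16.3, and 15.5 RPM in WT and 88.7, 80.5, and 78.4 RPM in the mutant.

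The composition of the last 10 nucleotides at the counted 3′ ends, nascent or mature, differed between strains. Reads of the 3′ segment had purines at 52.9%, 53.1%, and 52.6% of their last 10 nucleotides in WT and at 55.5%, 55.2%, and 55.5% in the mutant, whereas the positions themselves have 52.2%. The groups did not overlap and differed by 2.52 percentage points (exact permutation p = 0.1, adjusted p = 0.1). The GC share was 47.9% ± 0.257 in WT and 48.6% ± 0.297 in the mutant, against 46.5% over the positions, a difference of 0.673 percentage points (exact permutation p = 0.1, adjusted p = 0.1).

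Sorted by the same 10 nucleotides, positions with 7 to 10 purines were higher in the mutant at 84 and lower at 100 of 270 tested, with a median log2 fold change of −0.10. Those with 4 to 6 purines were higher at 106 and lower at 387 of 665 tested. Those with 0 to 3 purines were higher at 17 and lower at 147 of 196 tested, with a median of −0.56. Over the whole 35S gene, positions with 7 to 10 purines were higher at 48.9% and lower at 26.5%, and those with 0 to 3 purines at 38.0% and 40.3%. The order was thus the same, and both classes were shifted downward in the 3′ segment. For GC content, 12.6% of the positions with 0 to 3 G or C were higher, 18.6% of those with 4 to 6, and 28.2% of those with 7 to 10.

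Positions were also grouped by the 2 nucleotides just before the 3′ end. This grouping was chosen after the values had been seen, and is given as a description only. After UA, 57 of 68 positions (83.8%) were lower and 1 was higher, with a median log2 fold change of −0.65. After UU, 70 of 100 were lower and 10 higher, and after UC 41 of 59 were lower and 6 higher. After GG, by contrast, 31 of 81 (38.3%) were lower and 29 (35.8%) higher, with a median of 0.00, and after CC 22 of 49 were lower and 20 higher. Such UAN and GGN ends made up 6.01% and 7.16% of the tested positions of the 3′ segment, and 6.01% and 7.37% of those of the 35S gene. Over the 35S gene 219 of 411 positions after UA were lower and 88 higher, and of 504 after GG 101 were lower and 295 higher. There, 36.4% of positions after UU were lower and 38.7% higher, after UC 41.7% and 33.5%, and after CC 27.1% and 45.3%. The shares over all positions were 33.9% lower and 40.6% higher in the 35S gene, and 56.1% and 18.3% in the segment. UA had the largest share of lower positions and GG the smallest among the 16 dinucleotides, both in the segment and in the 35S gene.

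The last nucleotide itself was compared as a share of reads. Reads ended in U at 26.8%, 26.5%, and 26.4% in WT and at 24.7%, 24.2%, and 23.7% in the mutant, with no overlap and a difference of −2.35 percentage points (exact permutation p = 0.1, adjusted p = 0.133 over the 4 nucleotides). Ends in C made up 19.6% ± 0.715 and 21.1% ± 0.258, a difference of 1.5 points with the same p-values. The difference in A was 0.703 points (exact permutation p = 0.1, adjusted p = 0.133), and it turned to −0.449 without the highest 1% of positions. For G it was 0.147 points (exact permutation p = 0.9). Among positions, U was lower at 207 and higher at 44 of 312, and C was lower at 112 and higher at 57 of 228. These counts are to be read against all nucleotides together, of which 56.1% were lower and 18.3% higher in the segment. In the 35S gene, 33.9% of all positions were lower and 40.6% higher.

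Changes also followed the level in WT. Of the 283 positions with the lowest WT mean, 108 were higher and 72 lower, with a median log2 fold change of 0.01. Of the 283 with the highest, 9 were higher and 232 lower, with a median of −0.63. Because the WT values enter both the ranking and the fold change, these counts are a description.

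**Figure D4:**
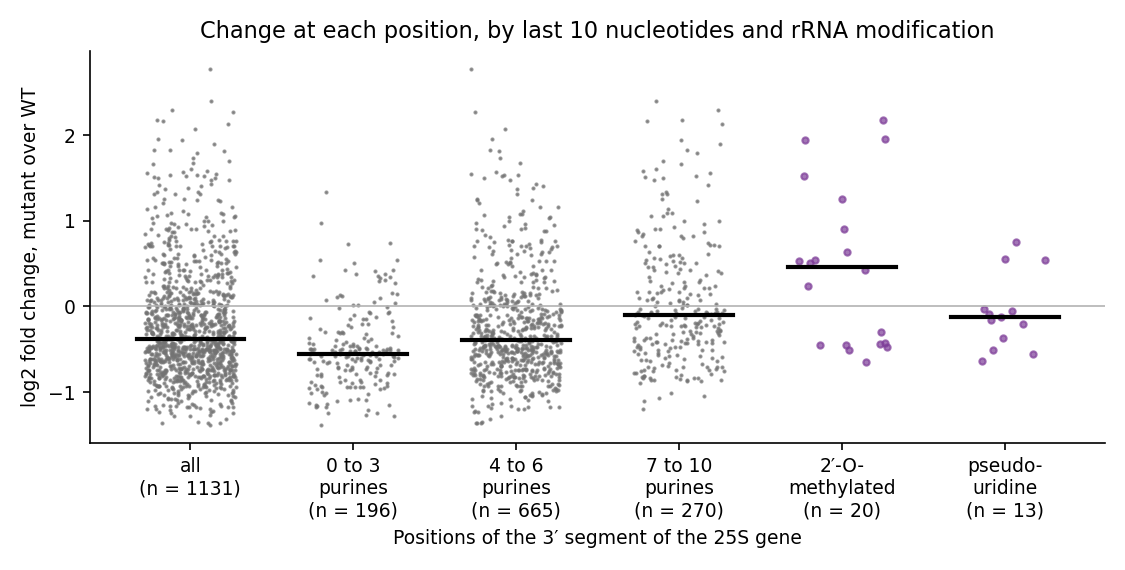
Log2 fold change (mutant over WT) at every tested position of the 3′ segment, for all positions, for classes by the number of purines in the last 10 nucleotides, and for the modified nucleotides of mature 25S rRNA. Points are positions and black lines are medians, which are −0.38 for all positions, −0.56 for 0 to 3 purines, −0.10 for 7 to 10 purines, and 0.46 for 2′-O-methylated nucleotides.

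Known landmarks of the mature rRNA were located by short motifs, searched on both strands of the 35S gene. The sarcin-ricin loop was found by GUACGAGAG, which occurs once, at 6273 to 6281. The adenosine of this loop that ricin depurinates lies at 6278, where the values were 89.4, 109, and 105 RPM in WT and 154, 135, and 139 RPM in the mutant, with no overlap (log2 fold change 0.49 ± 0.11 SE, limma adjusted p = 0.0031). On the scale of equal spacer totals its log2 fold change was −1.06. The 15 positions around the loop, from 6271 to 6285, had a mean of 53.7, 51.4, and 46.7 RPM in WT, low for the 3′ segment, and of 99.2, 87.8, and 88.9 RPM in the mutant. Of these 15, 7 were higher and 2 lower, against 18.3% and 56.1% of the segment and 40.6% and 33.9% of the 35S gene. The largest rise of the third window lay among these 15, at 6283, and is part of their means. At 6283, 115, 103, and 81.0 RPM became 444, 415, and 447 RPM (log2 fold change 2.13 ± 0.13 SE, limma adjusted p = 1.6e-06). The loop is printed to place both positions, with each of the 2 adenosines in capitals in turn.
position 6278 (chrXII:461282-461311): aguaauugaacuuaguacgAgaggaacagu
position 6283 (chrXII:461277-461306): uugaacuuaguacgagaggAacaguucauu

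A conserved adenosine at the heart of the peptidyl transferase centre was found by GGAUAAC, which occurs once on the RNA strand, at 6066 to 6072, and once on the opposite strand. At this adenosine, 6071, the values were 217, 178, and 162 RPM in WT and 133, 133, and 109 RPM in the mutant, a log2 fold change of −0.56 ± 0.13 (SE, limma adjusted p = 0.0046). It did not pass the threshold when libraries were rescaled to the same segment total (−0.23, limma adjusted p = 0.16). Of the 15 positions from 6064 to 6078, 2 were higher and 6 lower, to be read against the same shares.

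Mature 25S rRNA carries 2′-O-methyl groups on the ribose of selected nucleotides, most of them placed by box C/D snoRNPs, and pseudouridines placed mainly by box H/ACA snoRNPs. The 3′ segment has 20 listed 2′-O-methylated nucleotides and 13 pseudouridines. The list was drawn from textbook knowledge after the values had been seen and its bases were checked against the table, so the counts below are descriptive. At the methylated nucleotides, the median was 33.9, 41.7, and 35.5 RPM in WT, or 23.3% to 29.1% of the median of the 3′ segment in the same library. The mutant libraries had 77.3, 77.2, and 71.4 RPM, or 60.2% to 63.9%. The relative level was thus higher in every mutant library than in any WT library. In WT, 12 of the 20 were among the 283 lowest positions of the 3′ segment.

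Of these 20 nucleotides, 11 (55.0%) were higher and 6 (30.0%) lower in the mutant, with a median log2 fold change of 0.46. The shares over the 3′ segment were 18.3% higher and 56.1% lower, with a median of −0.38. Those over the 35S gene were 40.6% and 33.9%, with a median of 0.05. Among those 283 lowest positions, the unmethylated ones were higher at 36.7% and lower at 26.3%, with a median of 0.01. The largest rise among the methylated nucleotides was at 5532, an A, where 30.9, 40.9, and 38.5 RPM became 196, 168, and 148 RPM (log2 fold change 2.18 ± 0.14 SE, limma adjusted p = 2.1e-06). Next to it, methylated A 5531 went from 19.1 ± 6.16 to 55.3 ± 2.71 RPM. Methylated C 6210 had 30.5, 32.5, and 30.8 RPM in WT and 108, 140, and 128 RPM in the mutant, a log2 fold change of 1.96. Methylated G 6044 had 30.5, 36.5, and 31.7 RPM in WT and 120, 137, and 132 RPM in the mutant, a log2 fold change of 1.95. These 3 (5532, 6210, and 6044) were also among the 12 positions that stayed higher on the spacer scale, where the median of the 20 was −1.06.

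Other methylated nucleotides showed smaller differences. The methylated U and G of the A loop, which pairs with the CCA end of the tRNA in the A site, lie at 6172 and 6173. The U rose from 21.2 ± 1.06 to 41.1 ± 9.56 RPM (log2 fold change 0.90) and the G from 21.0 ± 2.06 to 28.7 ± 5.40 RPM (0.42). Methylated G 6066, within the motif of the peptidyl transferase centre, rose from 161 ± 15.3 to 231 ± 11.8 RPM. The largest fall was at U 5980, from 36.2 ± 3.69 to 22.7 ± 3.13 RPM (log2 fold change −0.65).

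At the pseudouridines the median was 68.5, 66.1, and 64.1 RPM in WT and 70.1, 57.7, and 56.7 RPM in the mutant, which overlapped. Relative to the median of the segment in the same library, it was 47.0%, 46.2%, and 45.7% in WT and 57.3%, 47.8%, and 47.8% in the mutant, which did not overlap. Of the 13, 3 were higher (5591, 6174, and 6195), 4 lower (5517, 5600, 5602, and 6116), and 6 neither, with a median log2 fold change of −0.13. These are 23.1% higher and 30.8% lower, against 18.3% and 56.1% over the segment and 40.6% and 33.9% over the 35S gene. U 6174, next to the methylated pair of the A loop, rose from 36.0 ± 6.96 to 61.7 ± 13.7 RPM. Whether the 2 kinds of nucleotide differ in response was not tested.

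Some of the most occupied positions of the segment lay just before the end of the gene, and no reads were counted at its exact 3′ terminus. The sequence around it is shown with the 25S gene in capitals and the start of ETS2 in lower case.
positions 6628 to 6657 (chrXII:460913-460942): GCCUUUGUUGUCUGAUUUGUuuuuuauuuc
Position 6647, the last of the gene, and the first 2 of ETS2 (6648 and 6649), which lie at the start of the run of U, had 0 reads in all 6 libraries. Counting error alone allows up to 3 reads, or 0.814 to 1.48 RPM, at a position where none was seen. Whether read processing affected the counts in this run of U was not tested. Position 6646 had 1891, 1818, and 1840 RPM in WT and 1294, 1266, and 1235 RPM in the mutant, a log2 fold change of −0.55 ± 0.08 (SE, limma adjusted p = 0.00036). At 6645 the values were 1599, 1347, and 1759 RPM in WT and 836, 840, and 859 RPM in the mutant, a log2 fold change of −0.88. At 6643 the change was from 569 ± 42.9 to 297 ± 13.6 RPM, and at 6644 from 286 ± 19.9 to 184 ± 10.8 RPM. At each of these 4 positions the strains did not overlap.

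Across the boundary, the first 2 nucleotides that had reads did not pass the test. Position 6650 had 77.7, 78.9, and 81.0 RPM in WT and 87.1, 76.7, and 79.8 RPM in the mutant (log2 fold change 0.03, limma adjusted p = 0.74), and 6651 had 36.5 ± 2.44 and 38.1 ± 1.68 RPM (0.06, limma adjusted p = 0.58). Position 6652 was slightly higher in the mutant, at 49.2 ± 5.05 against 36.9 ± 1.37 RPM (log2 fold change 0.40, limma adjusted p = 0.0062). Further into ETS2 the strains separated again, at positions chosen after their values were seen. Position 6661 had 435, 577, and 561 RPM in WT and 83.6, 78.9, and 84.6 RPM in the mutant (log2 fold change −2.65 ± 0.12 SE, limma adjusted p = 3.1e-07). Position 6662 had 812, 1162, and 1104 RPM in WT and 103, 98.9, and 91.2 RPM in the mutant (log2 fold change −3.36 ± 0.14 SE, limma adjusted p = 2.1e-07). Both falls were larger than any within the 3′ segment, where the lowest log2 fold change was −1.38. Whether the ends at 6661 and 6662 were nascent or were left by cutting of the precursor was not tested. The last 30 positions of the gene held 4.36%, 3.92%, and 4.46% of the reads of the 3′ segment in WT and 3.14%, 3.23%, and 3.31% in the mutant, a difference of −1.02 percentage points (exact permutation p = 0.1). For the last 10 positions alone, the difference was −0.505 points. The lower mean of the 3′ segment did not rest on its end, since without the last 10 positions the log2 ratio was −0.33.

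**Figure D5:**
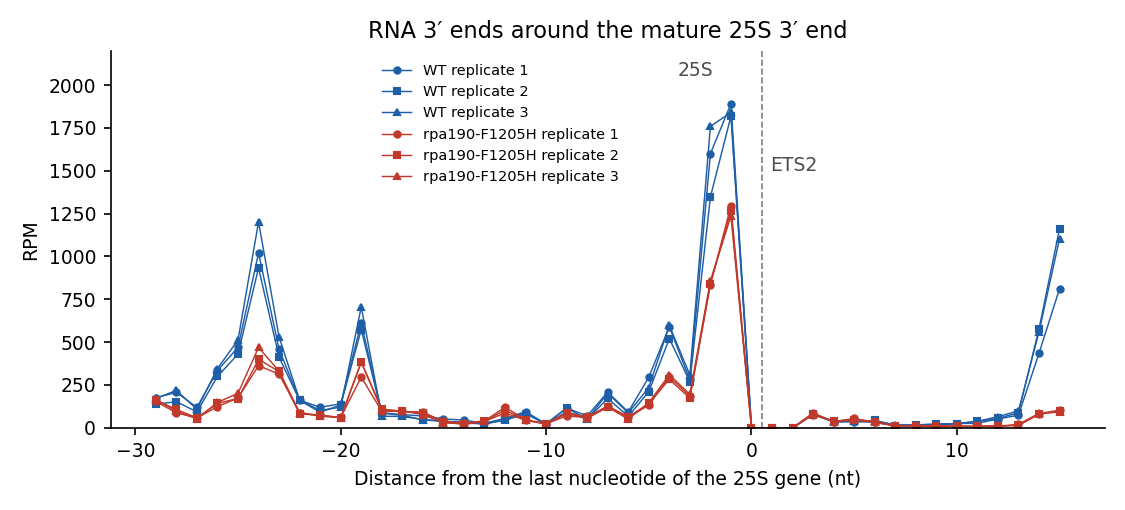
RPM in each library over the last 30 positions of the 25S gene and the first 15 of ETS2, against the distance from the last nucleotide of the gene in nucleotides. The peaks at 6645 and 6646 are lower in the mutant, no library has a read at 6647 to 6649, and at 6650 all libraries have 76.7 to 87.1 RPM. At the right edge WT rises to 812 to 1162 RPM at 6662, where the mutant has 91.2 to 103 RPM.

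The 3′ segment also fell relative to ETS1 and ETS2, the outer spacers. Its log2 ratio to ETS1, the first part transcribed, was 2.55, 2.33, and 2.53 in WT and 0.43, 0.41, and 0.37 in the mutant, a difference of −2.07 (exact permutation p = 0.1). Its log2 ratio to the neighbouring ETS2 averaged 3.67 ± 0.19 over WT and 2.89 ± 0.06 over the mutant, a difference of −0.78 (exact permutation p = 0.1). ETS2 holds positions 6661 and 6662, with means of 525 and 1030 RPM in WT and 82.4 and 97.7 RPM in the mutant. The ETS2 mean was 15.2 RPM in WT and 20.5 RPM in the mutant, whereas its median position had 1.66 and 3.67 RPM. How far 6661 and 6662 set this ratio was not tested. For the 3′ segment against the 18S gene, whose mean was 165 RPM in both strains, the difference was −0.34 (exact permutation p = 0.1). Because a share of the 18S and 25S reads may come from mature rRNA, these ratios compare reads and not polymerases alone.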

How the data were processed

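Per the methods, the authors used fqtrim to collapse reads that shared a molecular identifier, cutadapt to remove adaptors, STAR (2.7.1a in the submitters' processing notes) to align to R64, and BEDTools for the coverage of RNA 3′ ends. The division of reads between the 2 annotated rDNA copies is not given in the sources used here. The deposited RPM values are reads per 1000000 at positions 1 to 6739. The deposited table also holds the authors' mean signal per strain, a median, a ratio, and a p-value at each position, none of which was used. After division by the smallest nonzero value of its library, a value was a whole number of reads, to within 0.02 of a read, for 99.98% of 41148 values.

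Positions were compared with limma 3.58.1 (R 4.3.3) on log2(RPM + 1), strain as the only term, with Benjamini-Hochberg adjustment at 0.05 over the 6843 positions not at 0 in all libraries. Fold changes on this scale understate changes at low values. Library means and shares were compared by exact two-sided permutation tests, where groups of 3 allow no p below 0.1. The settings varied were the pseudocount (0.1 and 10), a filter at a mean of 10, the scaling (3 others), edgeR 4.0.16 and DESeq2 1.42.0 on the recovered reads, an unequal-variance test, a replicate block, and omission of each library. Comparisons with the 5′ and middle segments were added after the data had been seen.

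Named positions are the 10 highest of each strain by the median of its libraries, the 5 largest rises and falls that passed the threshold without overlap at a mean of 50 RPM or more, the largest of each in every window, the last 5 positions of the gene with the first 5 of ETS2, and 2 landmark motifs. The A loop was not located by a motif. Positions in runs of calls, modified nucleotides, positions higher on the spacer scale, and 6661 and 6662 are outside that rule, and their choice followed a look at their values. The region, lists, and rules were chosen with earlier results of these data known.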

Additional observations from a re-analysis of the deposited data

How the results depend on the processing

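Counts of calls in the 3′ segment depended on the scaling and little on the test. The 207 higher and 634 lower positions became 12 and 1086 with equal spacer totals and 349 and 319 with equal segment totals. They stayed within 1.5 times with equal medians, both other pseudocounts, the minimum mean of 10, edgeR, DESeq2, the unequal-variance test, and each library left out. Log2 fold changes reversed with equal spacer totals at 5652 (−1.03), 5860 (−1.15), 6068 (−1.48), and 6278 (−1.06), and with equal medians at 6068 (−0.10). Of the reads by last nucleotide, the difference in A reversed to −0.449 points without the highest 1% of positions, and that in G to −0.208 without WT replicate 3, with a leave-one-out range of −0.208 to 0.408. The cause of these reversals was not tested. Position 5860 missed the threshold with equal medians (limma adjusted p = 0.094), and 5922 and 6071 missed it with equal segment totals (limma adjusted p = 0.43 and 0.16) and with the unequal-variance test. With each library left out, the log2 ratio of the mean ran from −0.35 to −0.33 and the share of 25S reads from −3.79 to −3.55 points.

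Whether replicate numbers pair the samples could not be told from these values. Deviations of same-numbered libraries were correlated at 0.13, 0.027, and 0.20, and those of other pairs at −0.16 to 0.03. With the replicate block, 207 positions were higher and 652 lower, and the log2 ratio of the mean was −0.34.

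The scaling fixes each library's sum, and nascent and mature ends are not separated. With 3 libraries per strain, the smallest exact p was 0.1.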
